A study of Mus musculus with 4 samples.

Results

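The glucose uptake, glycolysis and pyruvate fate module is a set of 35 genes chosen by symbol, out of 55573 genes in the deposited table of counts. It runs in pathway order from the glucose transporters through the glycolytic enzymes to lactate dehydrogenase, the pyruvate dehydrogenase kinases, the mitochondrial pyruvate carrier and the pentose phosphate branch. The symbols were matched to mouse Ensembl identifiers through the GENCODE M21 annotation, and each of the 35 was found. Aldoa has 2 identifiers in the table, so the 35 symbols cover 36 table entries, and the entry with more reads was taken as the gene. RNA came from SmoWT cells, medulloblastoma cells of the Sonic Hedgehog (SHH) subtype from spontaneous tumours and grown as neurospheres, on a C57BL/6 background with the genotype Ptch1+/-, Trp53-/-. The control group, DMSO, received the solvent for 24 h in 2 libraries. The treated group, GDC0449, received 0.1 µM GDC0449 (vismodegib, an inhibitor of Smoothened, the signal transducer of the Hedgehog pathway) for 24 h, also in 2 libraries. Loss of 1 Ptch1 copy and of both Trp53 copies is shared by both groups. The labels do not give the number of tumours or cell lines, or say whether the replicates were separate cultures, so each p-value reflects just the differences among these libraries, and those may be technical.

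Glycolysis converts glucose to pyruvate in the cytosol. Hexokinases trap glucose as glucose 6-phosphate, phosphofructokinases commit it to glycolysis, and aldolase to pyruvate kinase carry out the lower steps that yield ATP. Pyruvate is then either reduced to lactate by lactate dehydrogenase and exported by monocarboxylate transporters, or taken into mitochondria and oxidised by pyruvate dehydrogenase, which the PDK kinases inhibit. Hedgehog signalling in cerebellar granule neuron progenitors, the cells from which SHH medulloblastoma arises, is known to raise aerobic glycolysis, with Hk2 as a described target.

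Reads in genes ranged from 16329721 to 20790030 per library. Gli1, a direct transcriptional target of Hedgehog signalling and the check of the treatment, was at 281 and 263 CPM (reads of the gene scaled to the size of the library) in DMSO and at 38.8 and 32.7 CPM in GDC0449, a log2 fold change of -2.93. In bulk RNA, fewer cells of a type and less RNA per cell cannot be told apart. With 2 libraries against 2, an exact permutation test of a single value cannot go below a two-sided p of 0.333, so gene calls rest on the edgeR fit across all genes.

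The 250 bases before the transcription start are shown for 4 members whose differences were past the edgeR threshold in every one of the 13 alternative analyses and whose RefSeq start lies within 4 bases of an annotated GENCODE start. Hk2 and Slc16a1 fell in GDC0449, and Aldoa and Ldhb rose. Sequences are from RefSeq (GRCm38.p6), written 5′ to 3′ on the gene's strand, and capitals mark matches on either strand to ACGTG (the core of a hypoxia response element), CACGTG (an E-box, which contains that core), CCACCCA (the core of a GLI site) or GGGCGG (a GC box).
Hk2, chr6:82774455-82774704, minus strand: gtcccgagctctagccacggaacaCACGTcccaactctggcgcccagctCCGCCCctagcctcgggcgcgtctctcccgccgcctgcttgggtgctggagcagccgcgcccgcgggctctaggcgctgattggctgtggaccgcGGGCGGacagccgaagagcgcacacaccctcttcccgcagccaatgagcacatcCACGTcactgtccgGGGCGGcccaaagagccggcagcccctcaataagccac
Slc16a1, chr3:104638414-104638663, plus strand: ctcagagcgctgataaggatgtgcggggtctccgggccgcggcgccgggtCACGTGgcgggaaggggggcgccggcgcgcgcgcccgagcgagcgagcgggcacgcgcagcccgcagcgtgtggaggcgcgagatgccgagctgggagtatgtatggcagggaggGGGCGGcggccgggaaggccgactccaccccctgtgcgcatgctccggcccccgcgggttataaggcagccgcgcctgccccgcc
Aldoa, chr7:126799255-126799504, minus strand, upstream of 1 of its 3 RefSeq starts: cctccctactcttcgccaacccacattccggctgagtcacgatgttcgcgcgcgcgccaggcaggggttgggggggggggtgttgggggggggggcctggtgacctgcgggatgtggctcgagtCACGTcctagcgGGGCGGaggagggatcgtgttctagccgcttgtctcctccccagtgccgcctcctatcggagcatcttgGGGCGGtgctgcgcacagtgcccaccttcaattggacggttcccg
Ldhb, chr6:142507958-142508207, minus strand: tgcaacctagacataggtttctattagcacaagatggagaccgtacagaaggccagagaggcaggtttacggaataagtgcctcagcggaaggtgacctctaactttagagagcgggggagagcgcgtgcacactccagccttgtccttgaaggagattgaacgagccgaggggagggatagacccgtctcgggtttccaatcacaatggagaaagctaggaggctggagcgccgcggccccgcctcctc
The windows of Hk2, Slc16a1 and Aldoa hold ACGTG and GC box matches, the Slc16a1 window alone of these 4 holds an E-box, and the Ldhb window holds none of the 4 motifs. No GLI core match lies in these 4 windows.

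Windows were found for 34 of the 35 members, all but Slc2a3. At least 1 window held ACGTG in 15 of the 34 members (44.1%), against 18.5% of all 27025 genes with a window. CACGTG was in 6 members (17.6%), against 6.86% of all genes, GGGCGG in 24 members (70.6%), against 35.4%, and CCACCCA in 7 members (20.6%), against 9.29%. These matches describe letters in a window of fixed length and not binding. A gene was counted if any of its windows held the motif, so genes with more starts had more chances of a match. The background was matched neither for the number of windows per gene nor for expression. Enrichment of the motifs in the module was therefore not tested. The GLI core was found in Hk1, Pfkfb4, Eno2, Slc16a3, Pdk2, Mpc1 and Pgd.

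Across the module, transcripts of the glycolytic enzymes were mostly higher after Smoothened inhibition, by modest amounts, while Hk2 and the lactate transporter gene Slc16a1 were lower. Below, a gene is said to rise or fall when its Benjamini-Hochberg adjusted p in the edgeR quasi-likelihood test, taken over all 15472 tested genes, was below 0.05, and to be called at 1.5-fold when the fold change was also over 1.5. Of the 35 members 33 passed the filter on low counts and were tested. Among them 19 rose (18.0% of all tested genes did), 3 fell (18.0% of all tested genes) and 11 did not pass. At 1.5-fold 4 members were called higher (8.62% of all tested genes) and 0 lower (3.8% of all tested genes). The background at either direction was 35.9% for the adjusted p alone and 12.4% at 1.5-fold. Of the members 29 averaged at least 20 CPM. Of these 29, 16 rose and 3 fell, against 17.9% and 27.6% of all tested genes at that level (45.4% in either direction). Of the same 29, 3 were called higher at 1.5-fold and 0 lower, against 4.47% and 3.07% of all tested genes at that level (7.55% in either direction). The members' median log2 fold change was 0.23, from -0.53 for Slc16a1 to 0.83 for Aldoa, beside a median of 0.01 over all tested genes. The GDC0449 libraries did not overlap the DMSO libraries in 27 of the 33 tested members, 21 higher and 6 lower, against 65.8% of all tested genes (33.6% higher and 32.2% lower). Summed over the 35 members, the level was 8098 and 7235 CPM in DMSO and 9621 and 8866 CPM in GDC0449.

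**Figure D1:**
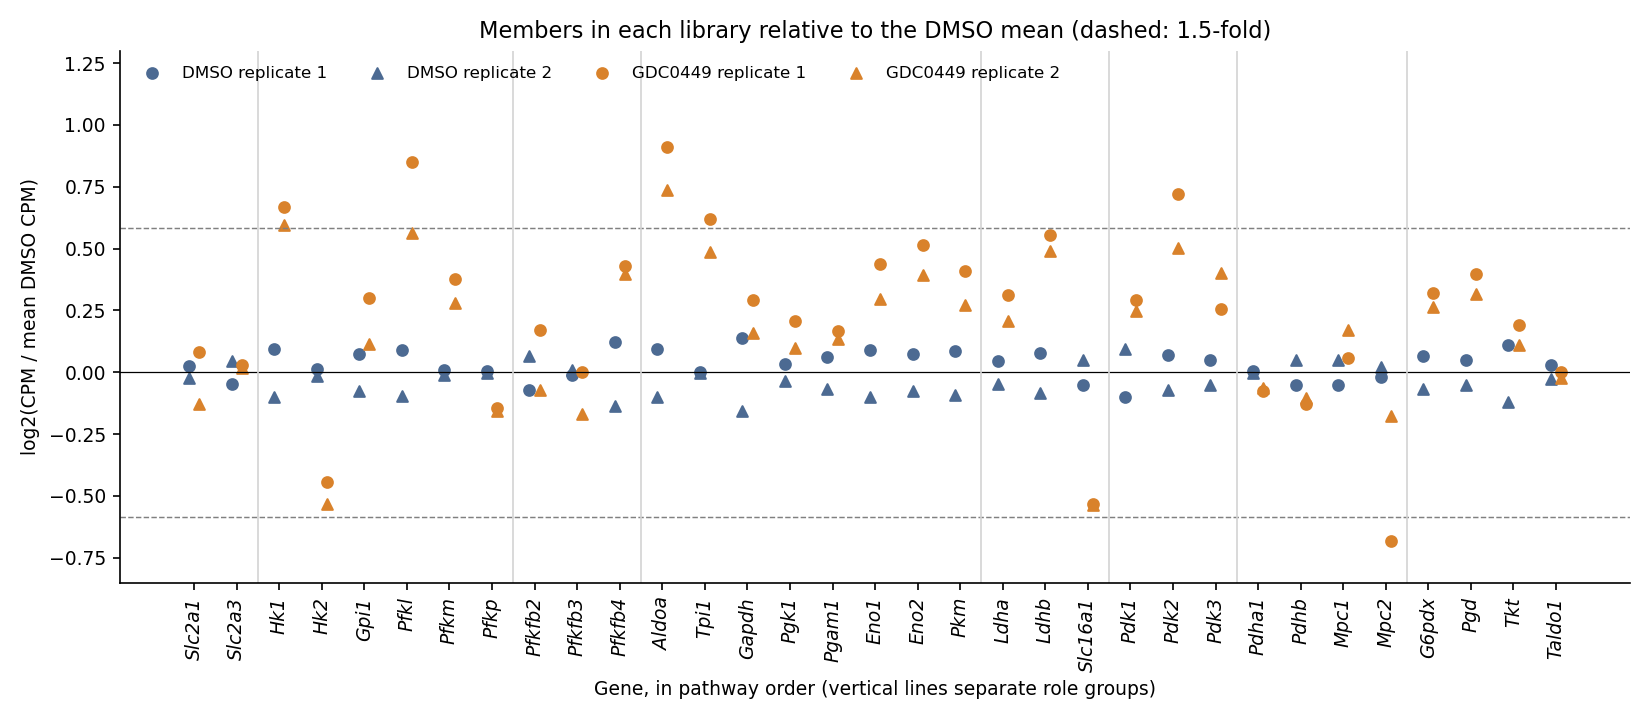
Level of each of the 33 tested members in each library as log2 of its CPM over the mean CPM of the DMSO libraries (vertical axis), in pathway order from left to right. Circles are replicate 1, triangles replicate 2, blue DMSO and orange GDC0449, and dashed lines mark 1.5-fold. Aldoa, Pfkl, Pdk2 and Hk1 lie highest in GDC0449, with means of 1.53-fold to 1.77-fold over DMSO, and Hk2, Slc16a1 and Mpc2 lie below the DMSO libraries. Pfkp, Pdha1 and Pdhb also lie below them, by less, and did not pass the test.

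The size of the count depended on the libraries. Without DMSO replicate 2, only Aldoa was called at 1.5-fold and 6 members were past the adjusted p. Without DMSO replicate 1 the counts were 4 and 7, without GDC0449 replicate 1 they were 2 and 14, and without GDC0449 replicate 2 they were 6 and 18. The members called differed between these fits. Without DMSO replicate 1 they included Slc16a1 and neither Pfkl nor Pdk2, and without GDC0449 replicate 2 they included Mpc2. Slc16a1 and Mpc2 were lower in GDC0449. Where 1 library is left out, the lone library of its group is assumed to vary like the other group. Of the tested members, 6 (Hk1, Hk2, Aldoa, Tpi1, Ldhb and Slc16a1) passed the adjusted p in every alternative, and Aldoa alone was also called at 1.5-fold in every one. DMSO replicate 1 lay above DMSO replicate 2 in 25 of the 33 members (50.3% of all tested genes), and GDC0449 replicate 1 above GDC0449 replicate 2 in 28 (51.6% of all tested genes). Both held for 23 members, beside 30.7% of all tested genes. Most members thus differed in the same direction between libraries of 1 group. The part of this order in the results was not tested.

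Neither glucose transporter of the module passed the test. Slc2a1, which encodes GLUT1, the widely expressed glucose transporter, had 22.0 and 21.3 CPM in DMSO and 23.0 and 19.9 CPM in GDC0449, so the groups overlapped. Slc2a3, which encodes the neuronal transporter GLUT3, had 64.6 and 68.8 CPM in DMSO and 68.2 and 67.6 CPM in GDC0449, again with overlap. Their log2 fold changes were -0.02 ± 0.10 (standard error, adjusted p = 0.916) and 0.03 ± 0.07 (adjusted p = 0.824) in edgeR.

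The hexokinases moved in opposite directions. Hk1 (ENSMUSG00000037012, chromosome 10, 62268855 to 62379908), the broadly expressed hexokinase of brain, had 53.3 and 46.7 CPM in DMSO and 79.6 and 75.5 CPM in GDC0449. Both treated libraries lay above both controls, a 1.55-fold rise (log2 fold change 0.63, standard error 0.08, edgeR adjusted p = 2.78e-09). Hk2 (ENSMUSG00000000628, chromosome 6, 82725025 to 82774454), the inducible isozyme prominent in muscle and many tumours, had 136 and 134 CPM in DMSO and 99.3 and 93.4 CPM in GDC0449. Both treated libraries lay below both controls, a 1.40-fold fall (log2 fold change -0.49, standard error 0.07, edgeR adjusted p = 4.1e-08). Hk2 kept its direction and passed the adjusted p in every alternative but was under 1.5-fold in each. Without DMSO replicate 2, Hk1 was at a log2 fold change of 0.53 and so under 1.5-fold.

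The count of Hk1 reads over Hk2 reads was 0.391 and 0.349 in DMSO and 0.801 and 0.808 in GDC0449. This ratio is taken within a library and does not depend on scaling between libraries. To compare the isozymes per length, counts were divided by the exonic length of each gene. On that scale Hk2 made up 78.5% and 80.4% of the hexokinase pair (Hk1 plus Hk2) in DMSO and 64.1% and 63.9% in GDC0449, a fall of 15.5 percentage points. From the deposited FPKM the shares of Hk2 were 66.1% and 68.4% in DMSO and 48.3% and 47.9% in GDC0449. Both scales put the GDC0449 libraries below the DMSO libraries, but the share itself depended on the scale.

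**Figure D2:**
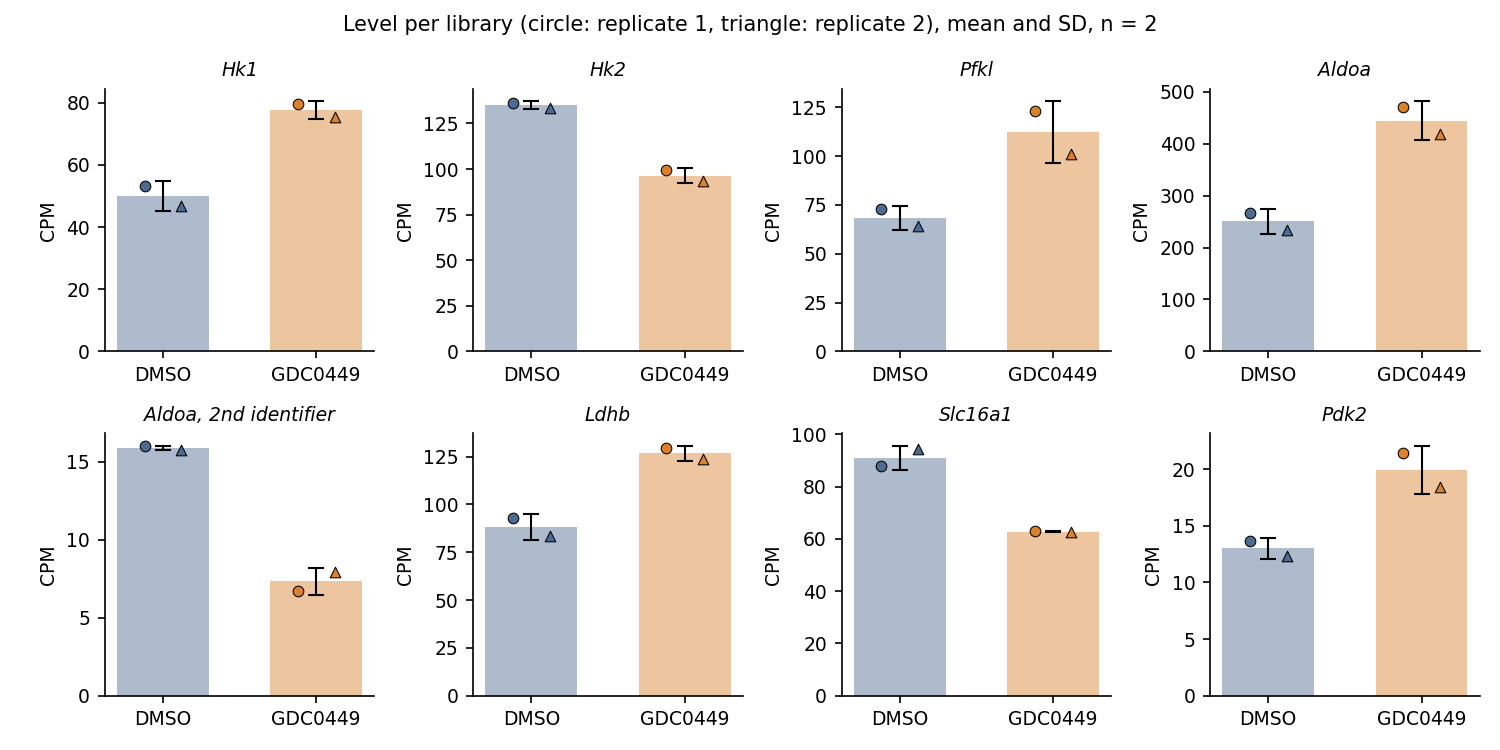
CPM (vertical axes, from 0) of 7 members and of the second Aldoa identifier in DMSO and GDC0449. Bars are means, whiskers the SD over 2 libraries, circles replicate 1 and triangles replicate 2. In each panel both libraries of 1 group lie above both of the other: Hk2, Slc16a1 and the second Aldoa identifier are lower in GDC0449, and the other 5 genes are higher.

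Between hexokinase and aldolase, 3 further genes rose. Pfkl (ENSMUSG00000020277, chromosome 10, 77986947 to 78010083), the liver-type subunit of phosphofructokinase, had 72.7 and 64.1 CPM in DMSO and 123 and 101 CPM in GDC0449. It rose 1.64-fold without overlap (log2 fold change 0.71, standard error 0.08, edgeR adjusted p = 1.18e-10). The edgeR adjusted p of Pfkl was 0.0596 without DMSO replicate 1 and 0.084 without DMSO replicate 2, and its log2 fold change was 0.56 without GDC0449 replicate 1. Pfkm, the muscle-type subunit, rose 1.26-fold, from 118 and 116 CPM to 152 and 142 CPM (edgeR adjusted p = 6.35e-05), and did not pass without either DMSO library. Pfkp, the platelet-type subunit, had 29.2 and 29.1 CPM in DMSO and 26.4 and 26.1 CPM in GDC0449 and did not pass (edgeR adjusted p = 0.218), although the groups did not overlap. Gpi1, the isomerase between hexokinase and phosphofructokinase, rose 1.16-fold, from 248 and 223 CPM to 290 and 255 CPM (edgeR adjusted p = 0.00986), and passed only with GDC0449 replicate 2 left out among the fits without 1 library. Gpi1 also did not pass with DESeq2, with no filter or on either FPKM scale. The Pfkl share of the phosphofructokinase level per exonic length was 22.5% and 20.6% in DMSO and 28.0% and 25.4% in GDC0449. From FPKM the shares were 32.1% and 24.0% in DMSO and 35.5% and 28.5% in GDC0449, and the groups overlapped.

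The bifunctional PFKFB enzymes set the level of fructose 2,6-bisphosphate, an activator of phosphofructokinase. Of the 3 genes 1 rose: Pfkfb4 went from 17.2 and 14.3 CPM to 21.2 and 20.8 CPM, a log2 fold change of 0.41 (edgeR adjusted p = 0.00317). It did not pass without either DMSO library (adjusted p = 0.0565 without replicate 1 and 0.134 without replicate 2) or on FPKM. Pfkfb4 also did not pass with DESeq2 or with no filter. Pfkfb2 and Pfkfb3 overlapped between groups and had log2 fold changes of 0.06 and -0.08. Pfkfb3, an isozyme with high kinase activity, had 38.9 and 39.4 CPM in DMSO and 39.2 and 34.8 CPM in GDC0449.

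From aldolase to pyruvate kinase, 7 of 8 genes rose and 0 fell. Aldoa, which splits fructose bisphosphate into triose phosphates, showed the largest difference of all tested members on counts (on FPKM, Ldha did). Aldoa (ENSMUSG00000030695, chromosome 7, 126795234 to 126800751) had 267 and 234 CPM in DMSO and 470 and 418 CPM in GDC0449, a 1.77-fold rise without overlap (log2 fold change 0.83, standard error 0.07, edgeR adjusted p = 4.77e-15). Over the alternatives its log2 fold change ran from 0.72 to 0.92. Tpi1, which interconverts the triose phosphates, rose 1.47-fold, from 159 and 158 CPM to 244 and 222 CPM (edgeR adjusted p = 4.66e-10), and was called at 1.5-fold in 4 of the 13 alternatives. Aldoa rose more than its neighbours: the ratio of Aldoa to Gapdh counts was 0.152 and 0.163 in DMSO and 0.240 and 0.234 in GDC0449.

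The remaining lower steps changed by less. Eno1, the widely expressed enolase, had 707 and 620 CPM in DMSO and 900 and 815 CPM in GDC0449, a 1.29-fold rise (edgeR adjusted p = 3.53e-06). Pkm, the pyruvate kinase of most tissues other than liver, had 1946 and 1722 CPM in DMSO and 2437 and 2216 CPM in GDC0449, a 1.27-fold rise (edgeR adjusted p = 5.4e-06). Eno1 and Pkm did not pass on either FPKM scale (limma adjusted p = 0.0802 and 0.0839 on log2(FPKM + 1)). Neither passed the adjusted p when either DMSO library was left out. The table counts genes and not isoforms, so PKM1 and PKM2, splice forms of Pkm, were not separated here. Gapdh, Pgk1 and Eno2 rose with log2 fold changes of 0.23, 0.15 and 0.45 in the main fit. None of them passed with DESeq2, with no filter or on either FPKM scale. Gapdh had 1763 and 1435 CPM in DMSO and 1957 and 1785 CPM in GDC0449. Its DMSO libraries thus differed from each other by more than the group means did. Eno2, the neuronal enolase, was low, at 4.89 and 4.41 CPM in DMSO and 6.64 and 6.11 CPM in GDC0449. Gapdh lost its adjusted p without either DMSO library or without GDC0449 replicate 1, and Pgk1 and Eno2 lost theirs without any 1 of the 4 libraries. Pgam1 had a log2 fold change of 0.15 and did not pass (edgeR adjusted p = 0.0754). On deposited FPKM, a scale per gene length, Gapdh and Pkm had the highest levels of the module, with means of 786 and 604 FPKM in DMSO and 925 and 800 FPKM in GDC0449.

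The second Aldoa identifier went the other way. ENSMUSG00000114515 lies on the same strand of chromosome 7, from 126800790 to 126809108, and its end nearest Aldoa is 38 bases beyond the upstream end of the main identifier. Its 799 exonic bases overlap no exon of another annotated gene. It had 16.0 and 15.8 CPM in DMSO and 6.74 and 7.96 CPM in GDC0449, a 2.16-fold fall without overlap (log2 fold change -1.11, standard error 0.13, edgeR adjusted p = 2.27e-09). It was called lower in all 13 alternatives. Of the reads of both identifiers together, it held 5.96% in DMSO and 1.63% in GDC0449. Reads assigned to this identifier fell while reads assigned to the main gene rose.

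The genes at the lactate branch also split. Ldhb, the heart-type lactate dehydrogenase subunit, had 93.0 and 83.2 CPM in DMSO and 129 and 124 CPM in GDC0449, a 1.44-fold rise without overlap (log2 fold change 0.52, standard error 0.07, edgeR adjusted p = 1.97e-08). Ldha, the muscle-type subunit, had 557 and 522 CPM in DMSO and 669 and 623 CPM in GDC0449, a 1.20-fold rise (log2 fold change 0.26, standard error 0.06, edgeR adjusted p = 0.000433). Ldha did not pass without either DMSO library or without GDC0449 replicate 1. Slc16a1 (ENSMUSG00000032902, chromosome 3, 104638668 to 104658462) encodes MCT1, a proton-coupled transporter of lactate and pyruvate. Slc16a1 had 87.8 and 94.3 CPM in DMSO and 63.0 and 62.7 CPM in GDC0449, a 1.45-fold fall without overlap (log2 fold change -0.53, standard error 0.07, edgeR adjusted p = 2.81e-08). Slc16a3, which encodes MCT4, the exporter of highly glycolytic cells, had 5 and 10 reads in DMSO and 5 and 10 in GDC0449 and was too low to test. Over the 3 tested genes of this step, 2 rose and 1 fell.

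All 3 tested pyruvate dehydrogenase kinases rose in the main fit. On log2(FPKM + 1) none of the 3 passed the adjusted p. Pdk1 and Pdk3 also did not pass with DESeq2, with no filter or on log2(FPKM + 0.1). Pdk2 (ENSMUSG00000038967, chromosome 11, 95026258 to 95041354), an isozyme found in many tissues, had 13.6 and 12.4 CPM in DMSO and 21.4 and 18.4 CPM in GDC0449, a 1.53-fold rise (log2 fold change 0.61, standard error 0.12, edgeR adjusted p = 3.56e-05). The edgeR adjusted p of Pdk2 was 0.0746 without DMSO replicate 1 and 0.0984 without DMSO replicate 2. Pdk1, a known target of the hypoxia factor HIF, rose from 26.4 and 30.2 CPM to 34.7 and 33.6 CPM (log2 fold change 0.27, edgeR adjusted p = 0.0172). Pdk3 rose from 19.4 and 18.1 CPM to 22.4 and 24.7 CPM (log2 fold change 0.33, edgeR adjusted p = 0.0114). Pdk1 lost its adjusted p without any 1 of the 4 libraries, and Pdk3 without either DMSO library or GDC0449 replicate 2. Pdk4, the isozyme induced by fasting, had 0 and 1 reads in DMSO and 1 and 0 in GDC0449 and was not tested.

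The enzyme that these kinases act on did not pass the test. Pdha1 and Pdhb, the subunits of the pyruvate dehydrogenase E1 component, had log2 fold changes of -0.07 and -0.12 (edgeR adjusted p = 0.427 and 0.171). Pdha1 had 162 and 162 CPM in DMSO and 154 and 155 CPM in GDC0449. Mpc1 and Mpc2 form the carrier that brings pyruvate into mitochondria. Mpc2 fell from 32.7 and 33.7 CPM to 20.7 and 29.4 CPM (log2 fold change -0.41, edgeR adjusted p = 0.00187). Without GDC0449 replicate 1 it was -0.18 with an adjusted p of 0.343. Mpc2 also lost its adjusted p without DMSO replicate 1, without DMSO replicate 2, with no filter and on both FPKM scales. Mpc1 had 7.89 and 8.45 CPM in DMSO and 8.49 and 9.19 CPM in GDC0449 and did not pass (adjusted p = 0.586).

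In the pentose phosphate branch, which makes NADPH and ribose phosphate, both oxidative dehydrogenases rose. Pgd went from 124 and 115 CPM to 157 and 149 CPM, a 1.28-fold rise (edgeR adjusted p = 1.84e-05). G6pdx, the first and rate-limiting enzyme of the branch, went from 50.9 and 46.4 CPM to 60.8 and 58.4 CPM, a 1.22-fold rise (edgeR adjusted p = 0.00262). Neither dehydrogenase passed on either FPKM scale, and G6pdx also did not pass with no filter. Without DMSO replicate 2 neither passed the adjusted p, and G6pdx also lost it without DMSO replicate 1 or GDC0449 replicate 1. Tkt and Taldo1, of the non-oxidative part, overlapped between groups. Tkt had 544 and 463 CPM in DMSO and 576 and 543 CPM in GDC0449 (log2 fold change 0.15, edgeR adjusted p = 0.0568), and Taldo1 had a log2 fold change of -0.01.

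Among isozyme families, the order of the members per exonic length was the same in both groups for hexokinases (Hk2 above Hk1), phosphofructokinases (Pfkm, Pfkl, Pfkp) and lactate dehydrogenases (Ldha above Ldhb). From FPKM, Hk1 stood above Hk2 in both GDC0449 libraries. For the lactate dehydrogenases even the direction depended on the scale. The Ldhb share was 26.1% and 25.1% in DMSO and 29.0% and 29.6% in GDC0449 from counts per exonic length. From FPKM it was 24.2% and 20.9% in DMSO and 16.7% and 17.5% in GDC0449. Aldoc, outside the module, stayed under 3% of the aldolase pair on both scales in every library.

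**Figure D3:**
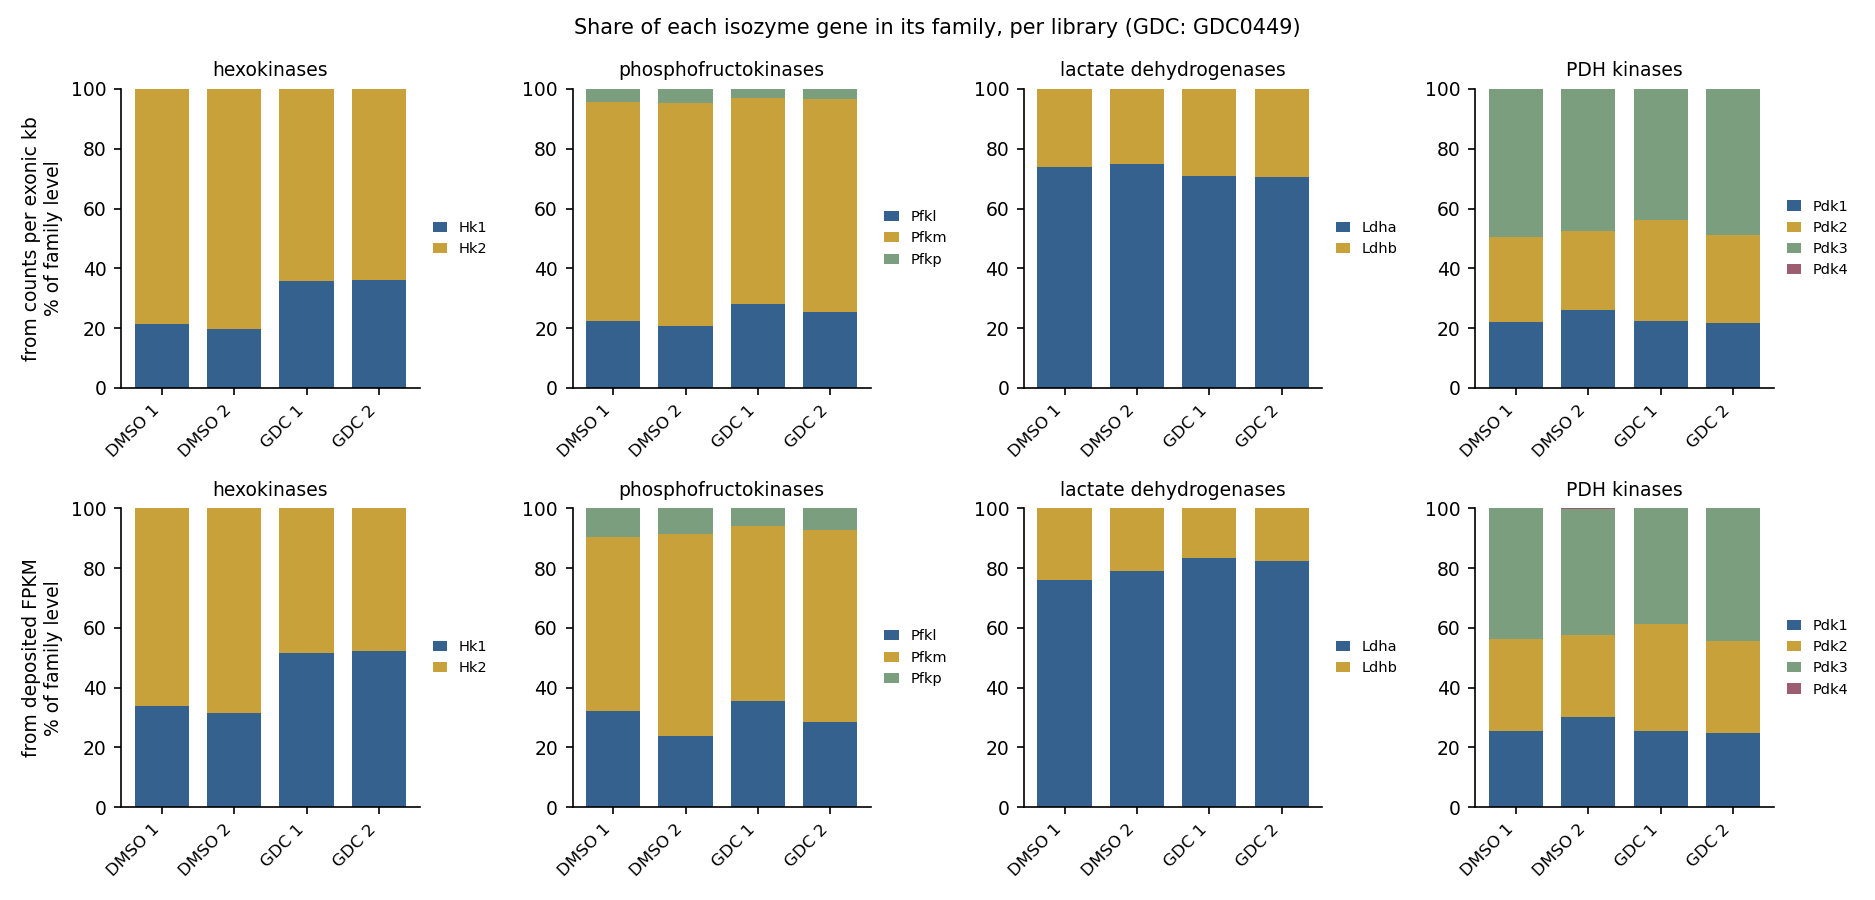
Share of each isozyme gene in the summed level of its family (vertical axes, percent) in each of the 4 libraries, from counts per kilobase of exon (top) and from the deposited FPKM (bottom). The Hk2 share is lower in both GDC0449 libraries on both scales, while the Ldhb share is higher in GDC0449 on the upper scale and lower on the lower one.

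Ldha was the member whose fold change differed most between counts and FPKM. On the log2(FPKM + 1) scale Ldha had a log2 fold change of 1.06, from 145 and 155 FPKM in DMSO to 326 and 302 FPKM in GDC0449, against 0.26 from counts. Tpi1 had 0.76 on that scale against 0.56 from counts, and Pfkfb4 had 0.14 against 0.41. By limma on FPKM Ldha, Tpi1, Aldoa and Hk1 were called at 1.5-fold, while Pfkl and Pdk2 were not (adjusted p = 0.133 and 0.0573). The tool behind the FPKM is not given in the sources used here, and the cause of the Ldha difference was not tested.

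**Figure D4:**
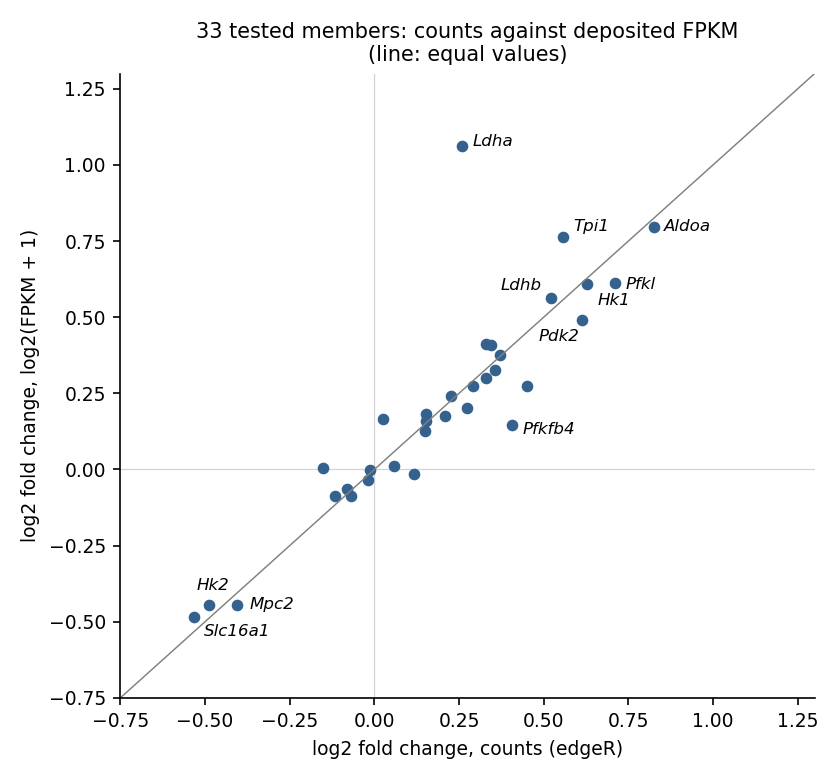
Log2 fold change of GDC0449 over DMSO for the 33 tested members, from counts in edgeR (horizontal axis) and from deposited values as log2(FPKM + 1) (vertical axis). Each point is a gene and the line marks equal values. Ldha lies far above the line, at 0.26 and 1.06, Tpi1 lies above it by less, and Pfkfb4 lies below it.

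Some members share sequence with other annotated genes, and their counts are less certain. Gapdh has 77 annotated near-identical copies (at least 95% identity over 300 bases), which held 0.396% of the reads of Gapdh and its copies together. Reads with several alignments were assigned to no gene, so such a share does not measure the reads lost to copies. Eno1 and Pgk1 have 4 such copies each and Ldha has 3. Pdhb and Gpi1 have 1 each, which held 8.29% and 4.57% of the reads of the gene and its copy. Mpc1 is the least certain: 1 copy, Mpc1-ps, held 35.4% of the reads of the pair. The mean DMSO FPKM of Mpc1 was 10.8 times its CPM per exonic kilobase, and that of Mpc2 was 4.1 times. In 7 members (Gpi1, Pfkm, Pfkfb2, Pkm, Pdha1, Mpc1 and G6pdx), more than 10% of exonic bases overlap exons of another gene, and the strand setting of the counting is not given in the sources used here.

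Genes of the surrounding pathways did not move in one direction. In 8 further lists with 112 genes in all, 95 were tested, of which 19 rose and 15 fell, with 10 called higher and 2 lower at 1.5-fold and a median log2 fold change of 0.00. The 35.8% past the adjusted p in these lists stood beside 35.9% of all tested genes, and the 12 of 95 called at 1.5-fold beside 12.4%, so both were near the background. These lists were chosen with earlier results of the data known. The 17 tricarboxylic acid cycle genes had a median of -0.06, with 0 higher and 1 lower: Mdh2, the mitochondrial malate dehydrogenase, at -0.20 (edgeR adjusted p = 0.00791). Of the 8 tested genes in the rest of the pentose phosphate pathway, 0 rose and 4 fell, among them Prps1, which makes phosphoribosyl pyrophosphate, at -0.38. The other 3 were Pgls, Rpia and Rpe, named after their values were seen.

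Genes around the pyruvate and malate steps and a sugar transporter were among those called. Got1, the cytosolic aspartate aminotransferase of the malate-aspartate shuttle, had 155 and 149 CPM in DMSO and 65.1 and 66.1 CPM in GDC0449, a 2.31-fold fall (edgeR adjusted p = 1.6e-20). Pck2, mitochondrial phosphoenolpyruvate carboxykinase, had 255 and 243 CPM in DMSO and 123 and 119 CPM in GDC0449, a 2.05-fold fall (edgeR adjusted p = 4.38e-19). Slc25a1, the mitochondrial citrate carrier, rose 1.78-fold, from 36.4 and 35.5 CPM to 66.8 and 61.3 CPM. Slc2a6, a facilitative sugar transporter, rose 2.64-fold, from 5.34 and 6.83 CPM to 15.2 and 16.7 CPM. Got1, Pck2, Slc25a1, Slc2a6 and Pgm1 (described next) were called at 1.5-fold in all 13 alternatives.

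Of the 27 tested isozyme and transporter genes outside the module, 6 rose and 4 fell. Slc2a4, which encodes the insulin-responsive glucose transporter GLUT4 and is named after its values were seen, rose from 22.1 and 24.1 CPM to 32.5 and 30.5 CPM (log2 fold change 0.45, edgeR adjusted p = 0.000189). Besides Slc2a6, Aldoc (log2 fold change 1.05) and Slc2a13, an inositol transporter (0.83), had the smallest p among those called. Aldoc did not pass without DMSO replicate 2 (adjusted p = 0.0578), and Slc2a13 did not pass without either DMSO library. In glycogen metabolism 5 of 13 tested genes rose and 1 fell. The 3 called were Pygb and Pygl, glycogen phosphorylases, and Pgm1, a phosphoglucomutase, with log2 fold changes of 0.59, 1.48 and 1.22. Pygb was called at 1.5-fold in 6 of the 13 alternatives, though past the adjusted p in all. Pygl passed the adjusted p in 6 of 12 alternatives, and not with DESeq2, on FPKM, without either DMSO library or without GDC0449 replicate 1. Pygl was low, at 0.509 and 0.559 CPM in DMSO and 1.66 and 1.33 CPM in GDC0449. Pdp2, a phosphatase that reactivates pyruvate dehydrogenase and so opposes the PDK kinases, rose 1.57-fold, from 25.2 and 25.2 CPM to 40.3 and 39.2 CPM.

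**Figure D5:**
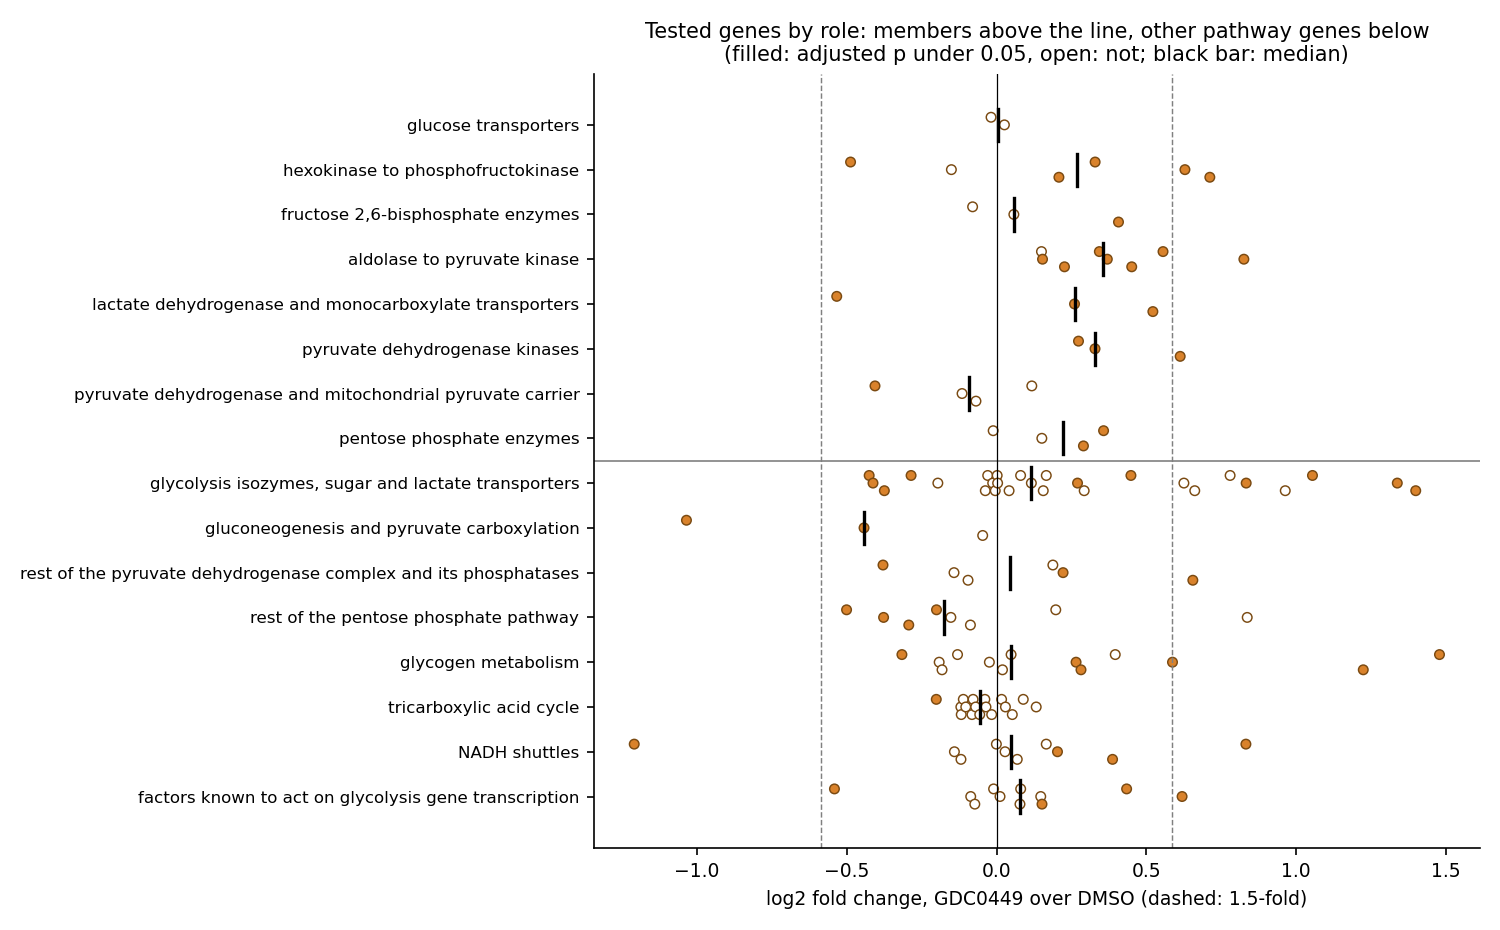
Log2 fold change of GDC0449 over DMSO (horizontal axis) for each tested gene, by role. The 8 rows above the grey line are the module and the 8 below are other pathway genes. Filled circles had an edgeR adjusted p under 0.05, open circles did not, black bars are medians and dashed lines mark 1.5-fold. Most aldolase to pyruvate kinase genes are filled and right of 0, while the tricarboxylic acid cycle genes lie near 0.

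Of the 11 tested factors known to act on glycolysis genes, 3 rose and 1 fell. Myc rose 1.54-fold, from 18.7 and 19.2 CPM to 31.3 and 26.8 CPM (edgeR adjusted p = 2.82e-06), but did not pass without either DMSO library. Mycn, a proliferation driver in granule neuron progenitors and also on the progenitor marker list, fell 1.46-fold, from 1335 and 1283 CPM to 885 and 913 CPM. The other 2 that rose, Hif1a (log2 fold change 0.15) and Esrra (0.43), are named after their values were seen. Epas1 and Arrdc4 had 0 reads in all 4 libraries.

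Markers of granule neurons, the cells into which these progenitors mature, were mostly higher in GDC0449, as were some progenitor markers. The marker counts below stand beside 18.0% of all tested genes that rose, 18.0% that fell and 8.62% called higher at 1.5-fold. Of 7 tested granule neuron markers 5 rose, 4 of them (Neurod1, Cntn2, Dcx and Tubb3) over 1.5-fold. Rbfox3 (log2 fold change -0.08) and Nhlh2 (0.41) did not pass. On the progenitor list Atoh1 (0.81) and Meis1 (0.96) were called higher at 1.5-fold. The summed level of the granule neuron list was 903 and 842 CPM in DMSO and 1636 and 1558 CPM in GDC0449. Gabra6, a marker of mature granule neurons, was at 0 in all libraries. Of 6 tested progenitor markers 4 rose and 2 fell, Mycn and Pax6 (log2 fold change -0.19). The progenitor list had sums of 2201 and 2155 CPM in DMSO and 1949 and 2067 CPM in GDC0449. Mycn had the highest CPM of that list in every library. Without it the list summed to 866 and 872 CPM in DMSO and to 1064 and 1154 CPM in GDC0449, the opposite direction. The astrocyte list, which shares Aldoc with the aldolases, had sums of 216 and 231 CPM in DMSO and 343 and 337 CPM in GDC0449. Of its 7 tested genes 3 were higher and 1 lower, with Aqp4 and Aldh1l1 at 0. The largest difference in CPM was that of Slc1a2, from 72.6 and 83.5 CPM to 178 and 176 CPM. Slc1a3 overlapped between groups, and Gja1 was the gene that fell. Oligodendrocyte lineage markers, with Olig1 at 0, summed to 68.6 and 69.1 CPM in DMSO and to 84.9 and 82.9 CPM in GDC0449. Of 4 tested genes 1, Mbp, rose. Mbp made up most of the sum, at 51.7 and 51.7 CPM in DMSO and 68.0 and 69.8 CPM in GDC0449. Olig2 and Sox10 had at most 2 reads in any library. Skeletal muscle markers, with Myh4 at 0, summed to 7.58 and 7.08 CPM in DMSO and to 9.96 and 12.3 CPM in GDC0449, and 2 of 4 tested genes, Ttn and Myog, rose. The part of these lists in the module's differences was not tested. Microglial, endothelial, fibroblast and erythroid markers summed to at most 7.2 CPM in any library, and 6 genes of these 4 lists passed the adjusted p at those levels.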

How the data were processed

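RNA was sequenced from 2 DMSO and 2 GDC0449 libraries. The authors used Trim Galore for adapters, HISAT2 for mapping to mm10 and HTSeq 0.11.1 for the raw counts per gene, and tested them in DESeq2 1.26.0, per the submitters' processing notes and the series' design text. The deposited table also gives FPKM, for which the design text names reads per gene, gene length and depth but no tool. For 546 genes with 0 counts in all 4 libraries the FPKM was at least 1 in all 4. The sources used here do not give the annotation release or the strand setting. The 6 entries that name no gene entered neither library sizes nor tests. They held 12.3% to 14.4% of all reads as reads in no gene, 4.73% to 4.91% as ambiguous reads and 10.4% to 10.7% as reads with several alignments.

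Symbols, coordinates and exonic lengths came from GENCODE M21 (GRCm38), which held 55480 identifiers of the table. The test on counts was edgeR's quasi-likelihood test (edgeR 4.0.16, R 4.3.3) with TMM scaling, filterByExpr, group as the only term, all 4 libraries, Benjamini-Hochberg adjustment over 15472 genes. The biological coefficient of variation was 4.82%. Standard errors are the log2 fold change over the square root of F. CPM uses TMM factors. Alternatives were scaling by RLE or by upper quartile, all genes unfiltered, genes with 5 CPM in 2 libraries, the replicate block, DESeq2 1.42.0, limma-voom (limma 3.58.1), limma on log2(FPKM + 1) and log2(FPKM + 0.1), and leaving out each library. Near-identical copies were found with BLAST 2.17.0.

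Members and lists were chosen with earlier results of these data known. All members are described, in full for those called or with the 12 smallest p among those past the adjusted p, and for the most abundant of each role. From each other list, up to 3 called genes with the smallest p are named, or the 1 with the smallest p.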

Additional observations from a re-analysis of the deposited data

How the results depend on the processing

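Of 4 members called at 1.5-fold, the count was 4 or 5 under every alternative that kept all 4 libraries. The genes were not always the same: on both FPKM scales Ldha and Tpi1 were called, and Pfkl and Pdk2 were not. The count ranged more widely with a library left out. Of 22 members past the adjusted p, 13 passed with no filter, 8 on log2(FPKM + 1), 9 on log2(FPKM + 0.1), 15 with DESeq2 and 6 to 18 without 1 library. Of 12 other pathway genes called at 1.5-fold, 7 were called on log2(FPKM + 1) and 6 to 12 without 1 library. Of all tested genes 1921 were called at 1.5-fold, against 1165 with the filter at 5 CPM, 1226 with DESeq2, 840 on log2(FPKM + 1), 1258 on log2(FPKM + 0.1) and 852 to 1711 without 1 library. Past the adjusted p were 5557, against 3195 with no filter, 3492 with DESeq2, 1888 on log2(FPKM + 1), 2033 on log2(FPKM + 0.1) and 1333 to 3875 without 1 library. The cause was not tested.

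With a replicate block, 25 members passed the adjusted p and 4 were called at 1.5-fold, with 14 other pathway genes, 2000 genes called and 6829 past the adjusted p. The deviations of same-numbered libraries correlated at 0.061, and the labels state no pairing, so the block is given only here.

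Small differences changed sign, and none of these passed the test. Slc2a1 was 0.015 with upper-quartile scaling, 0.0090 with the filter at 5 CPM and -0.13 to 0.080 without 1 library. Taldo1 was 0.022 and 0.016 under the first 2 of these and -0.047 to 0.014 without 1 library. Pfkp was 0.0056 on log2(FPKM + 1) and 0.0075 on log2(FPKM + 0.1), and Mpc1 was -0.014 on both. Without 1 library, Slc2a3 ran from -0.022 to 0.062, Pfkfb2 from -0.069 to 0.17 and Pfkfb3 from -0.17 to 0.00011. The Hk2 share of the hexokinase pair fell by 15.5 percentage points from counts per exonic length and by 19.1 from FPKM.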
